A study of Mus musculus with 9 samples.

Results

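Acetylation of histone H2B (AcH2B) was compared between 3T3-L1 cells given an siRNA against ME2 (siME2) and cells given a negative control siRNA (siControl). The members were the AcH2B regions that the authors listed for these libraries, taken as unique combinations of chromosome, start and end. There were 20046 regions in siControl and 32465 in siME2, together 52511 of the 203782 regions in the 9 lists of the series. 3T3-L1 is a mouse line of preadipocytes, fibroblast-like cells that can be turned into fat cells in culture. Both groups got their siRNA 2 days before adipocyte differentiation was induced, and chromatin was fixed in 1% formaldehyde 7 days after induction. The series also holds AcH2B after an ME1 siRNA (siME1), and acetylated histone H3 (AcH3) and HDAC3 libraries for each siRNA.

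Each antibody and siRNA had 1 library, so no difference has a replicate check and none was tested. Intervals are 95% Wilson intervals that cover counting error only, and the regions of a library are not replicates of its condition. These files hold no transcript or protein level, so the extent of the ME2 knockdown was not checked. No AcH2B region lay within 1 kb of either end of the Me2 gene in either list. A mark carried by fewer cells and a lower mark in every cell cannot be told apart in such bulk libraries.

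Histone acetyltransferases place acetyl groups on the lysines of the H2B tail at active promoters and enhancers, and histone deacetylases remove them. HDAC3 is one of these deacetylases and works within the NCoR and SMRT corepressor complexes. ME2 is the mitochondrial malic enzyme, which turns malate into pyruvate, and ME1 is its cytosolic relative, a source of NADPH for fatty acid synthesis in fat cells.

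Promoters show most directly where the lists differed. The windows below run from 250 bases before to 50 bases after an annotated transcript start and come from RefSeq, build GRCm38.p6. Each overlaps a region that 1 of the libraries listed and the other did not. Acly makes the acetyl-CoA used for fatty acid synthesis and for histone acetylation, and its window is chr11:100527951-100528250 on the minus strand. Me1 encodes cytosolic malic enzyme, with its window at chr9:86695865-86696164 on the minus strand. Tsc2 encodes tuberin, an inhibitor of mTOR signalling, with its window at chr17:24632578-24632877 on the minus strand. Gps2 encodes a subunit of the HDAC3 and NCoR complex, with its window at chr11:69913770-69914069 on the plus strand. Prmt9 encodes an arginine methyltransferase, with its window at chr8:77549147-77549446 on the plus strand, and comes first in the ranking of gained genes given below, which leaves out regions of high local background. These 5 were gained in siME2. Mdfic, at chr6:15720411-15720710 on the plus strand, was lost. Capitals mark matches, on either strand, to 9 motifs: the GC box GGGCGG, the CCAAT box, the TATA box TATAAA, the AP-1 motif TGANTCA, the E-box CACGTG, the cyclic AMP response element TGACGTCA, the C/EBP palindrome TTGCGCAA, the ETS motif CCGGAAGT and the NRF1 half-site TGCGCA, which also lies within the C/EBP palindrome.
Acly: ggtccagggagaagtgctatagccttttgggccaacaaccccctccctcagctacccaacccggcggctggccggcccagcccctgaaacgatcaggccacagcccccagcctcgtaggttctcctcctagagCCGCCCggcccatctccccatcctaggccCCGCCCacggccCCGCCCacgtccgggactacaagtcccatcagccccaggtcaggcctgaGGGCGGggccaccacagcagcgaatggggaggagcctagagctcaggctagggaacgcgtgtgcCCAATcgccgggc
Me1: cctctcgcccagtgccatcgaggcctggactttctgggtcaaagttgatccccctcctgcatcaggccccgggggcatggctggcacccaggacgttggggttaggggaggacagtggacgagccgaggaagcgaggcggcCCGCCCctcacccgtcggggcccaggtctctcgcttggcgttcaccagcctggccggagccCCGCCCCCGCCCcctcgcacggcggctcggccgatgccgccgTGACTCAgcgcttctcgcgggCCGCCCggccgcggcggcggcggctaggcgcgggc
Tsc2: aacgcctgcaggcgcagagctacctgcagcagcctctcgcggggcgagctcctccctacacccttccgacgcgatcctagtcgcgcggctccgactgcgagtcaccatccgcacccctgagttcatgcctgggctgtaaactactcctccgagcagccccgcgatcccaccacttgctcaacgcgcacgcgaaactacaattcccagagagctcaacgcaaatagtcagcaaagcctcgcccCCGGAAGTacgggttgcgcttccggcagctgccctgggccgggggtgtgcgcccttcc
Gps2: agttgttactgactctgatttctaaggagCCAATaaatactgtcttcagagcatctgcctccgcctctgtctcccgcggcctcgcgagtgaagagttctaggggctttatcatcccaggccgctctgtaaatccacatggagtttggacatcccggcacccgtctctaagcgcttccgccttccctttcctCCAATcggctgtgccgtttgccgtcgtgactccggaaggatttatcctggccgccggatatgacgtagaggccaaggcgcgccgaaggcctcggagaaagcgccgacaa
Prmt9: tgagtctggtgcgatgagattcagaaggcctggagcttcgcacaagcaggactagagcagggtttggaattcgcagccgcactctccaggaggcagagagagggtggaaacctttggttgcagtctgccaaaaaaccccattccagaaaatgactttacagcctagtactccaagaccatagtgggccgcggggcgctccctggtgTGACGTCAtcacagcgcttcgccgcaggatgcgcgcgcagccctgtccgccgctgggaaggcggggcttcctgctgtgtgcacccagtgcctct
Mdfic: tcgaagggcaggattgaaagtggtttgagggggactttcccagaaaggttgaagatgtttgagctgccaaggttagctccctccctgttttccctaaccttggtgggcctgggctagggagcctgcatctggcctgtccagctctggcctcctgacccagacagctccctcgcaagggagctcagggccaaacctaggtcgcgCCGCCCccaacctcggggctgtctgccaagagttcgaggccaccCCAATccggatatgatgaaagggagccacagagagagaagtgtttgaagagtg

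The siME2 region at Acly (chr11:100528112-100528646) had its summit at position -390 bp from the start, negative being upstream, and shared 139 bp with the printed window. The summit lay at -279 bp at Me1, -330 bp at Tsc2, -390 bp at Gps2 and -311 bp at Prmt9. The siControl region at Mdfic (chr6:15720678-15721161) had its summit at 199 bp, downstream of the start. The 5 gained summits thus lay upstream and the lost one downstream. The Acly window held 4 GC boxes and 1 CCAAT box, and the Me1 window 4 GC boxes and 1 AP-1 motif. Tsc2 held 1 ETS motif, Gps2 held 2 CCAAT boxes, and Prmt9 held 1 cyclic AMP response element. A match describes these letters and is not evidence of a bound factor.

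More regions were listed after ME2 knockdown, and by an overlap of 1 bp most siControl regions were still there. Of the 20046 siControl regions, 13846 shared at least 1 bp with a siME2 region (69.1%, 68.4% to 69.7%) and are called kept. The other 6200 (30.9%) are called lost. Of the 32465 siME2 regions, 19369 had no siControl region beneath them (59.7%, 59.1% to 60.2%) and are called gained. The split depends on the overlap asked for: with 50% reciprocal overlap 33.5% of siControl regions were kept and 66.5% lost, and 79.3% of siME2 regions were gained. The regions covered 12.6 Mb in siControl and 21.2 Mb in siME2. In siME1, 54649 AcH2B regions covered 41.7 Mb.

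Lost and gained regions were the weaker regions of their lists. The pileup, the authors' scaled read coverage at the summit, had a median of 14.3 over lost and 17.9 over kept siControl regions. Median width was 365 bp over lost and 532 bp over kept regions. In siME2 the median pileup was 13.9 over gained regions and 18.3 over regions that met a siControl region, with median widths of 411 and 689 bp. The −log10 q was under 5 for 80.0% of lost and 50.7% of kept siControl regions, and for 75.1% of gained siME2 regions. Keeping followed pileup in steps. With each list divided by pileup into 10 bins of equal size, 45.5% of the lowest siControl bin was kept and 97.6% of the highest. From the other side, 16.5% of the lowest and 84.8% of the highest siME2 bin met a siControl region. The highest siControl regions were thus nearly all listed again, more so than the highest siME2 regions were in siControl. The siME2 list is the longer one, and the part of list length in this difference was not tested. With equal numbers of regions in both lists, 56.7% of siControl regions were kept and 49.6% of siME2 regions were gained.

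**Figure D1:**
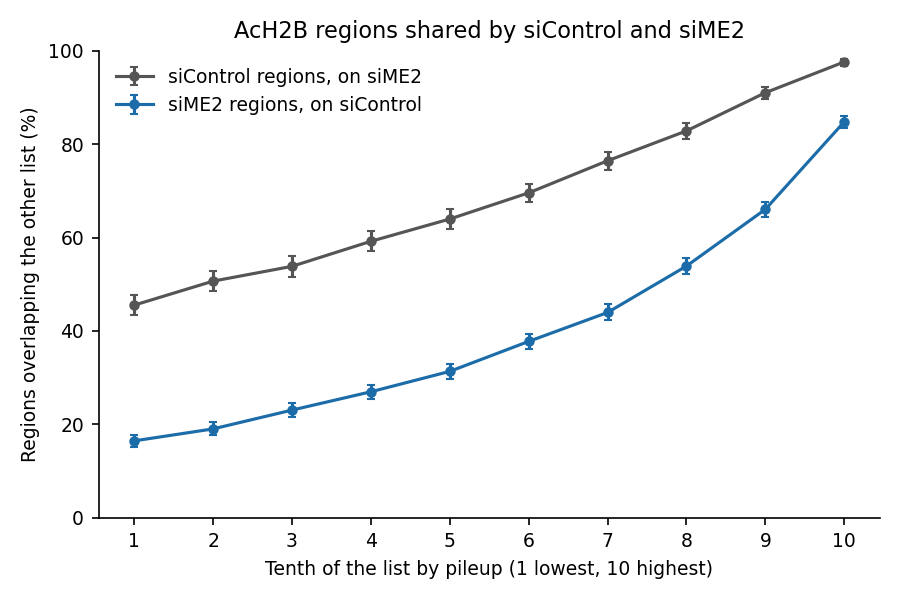
Share of AcH2B regions that overlap the other library's list (y axis, %) over 10 bins of rising pileup (x axis), for siControl regions (grey) and siME2 regions (blue), with Wilson 95% intervals. The siControl line runs from 45.5% to 97.6% and the siME2 line from 16.5% to 84.8%, and the siControl line is higher in every bin. The lists differ in length, with 20046 siControl and 32465 siME2 regions.

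Kept regions were wider in siME2, while their height differed little. A siControl and a siME2 region that met each other and no other region formed 8594 pairs. The median width was 492 bp in siControl and 633 bp in siME2, and the median ratio within a pair was 1.18 (quartiles 0.88 and 1.70). At least 1.5 times the siControl width was reached by 2823 pairs (32.8%), and 980 pairs (11.4%) were narrower by that factor. The median pileup ratio was 1.04 (quartiles 0.87 and 1.24). The pileup was at least 1.5 times higher in siME2 in 740 pairs (8.61%) and lower by that factor in 435 (5.06%). Summits of a pair lay within 150 bp of each other in 53.4% of pairs. The pileup ratio had a median of 1.23 in the fifth of pairs with the lowest siControl pileup and 0.91 in the fifth with the highest. These groups were formed on the siControl pileup, which is also the denominator of the ratio.

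**Figure D2:**
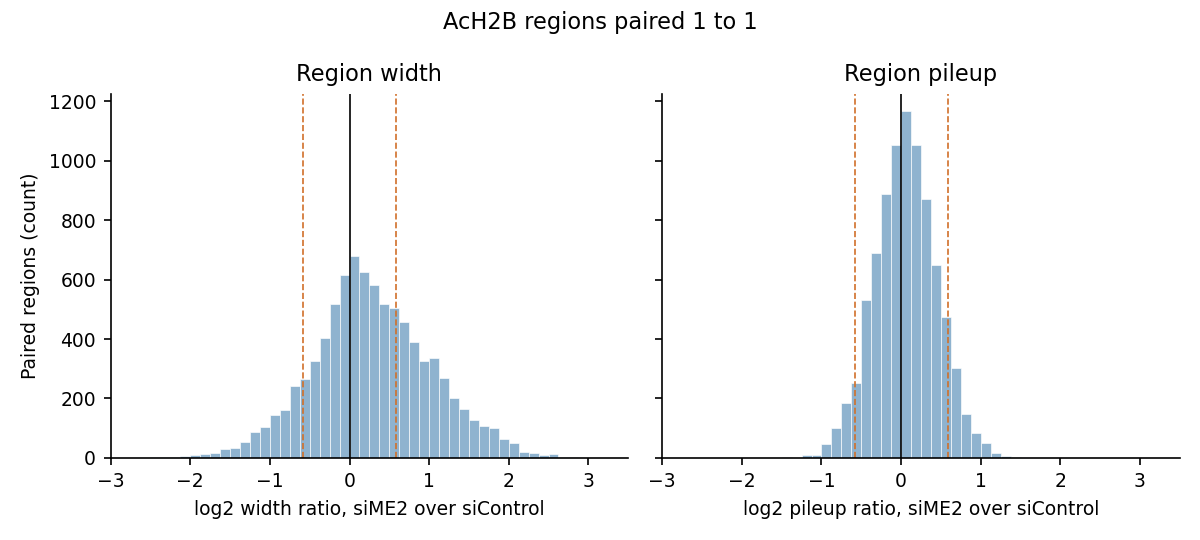
Histograms of the log2 ratio, siME2 over siControl, of region width (left) and pileup (right) over 8594 pairs, with pair counts on the y axis; dashed lines mark ratios of 1.5 either way. Width ratios centre above the line of no difference, with a median of 1.18, and pileup ratios close to it, with a median of 1.04.

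The siME2 region near Galnt9 was the widest, at 9266 bp (chr5:110602119-110611384), and lay over 4 siControl regions that together spanned 9358 bp. Near Enpp2, which encodes autotaxin, a siME2 region of 8274 bp (chr15:54805573-54813846) lay over 3 siControl regions with a summed width of 8031 bp. Both loci were thus already broadly marked in siControl. A domain of 7509 bp near Gipc2 (chr3:152003368-152010876) was different, with 4902 bp in 5 regions in siControl. Among the pairs, the largest gain in width was from 290 to 3144 bp, in a region 447995 bp from the nearest gene end, that of Cxadr (chr16:77850325-77853468). Its pileup was 15.2 in siControl and 20.04 in siME2. An intronic region of Fbxo32, a ubiquitin ligase of muscle wasting, widened from 451 to 2714 bp and its pileup went from 19.7 to 34.8 (chr15:58192896-58195609).

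Gained regions lay nearer to genes than the regions already present. Their summits were within 1 kb of either end of a RefSeq protein-coding gene, called a gene end below, in 22.3% of cases (21.7% to 22.9%). The share was 12.2% of kept and 10.0% of lost siControl regions. The median distance to a gene end was 15738 bp for gained, 20972 bp for kept and 25681.5 bp for lost regions. Most gained regions were still distal: 40.6% lay between genes and 37.1% inside a gene, over 1 kb from its ends.

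Around transcript starts the gained summits formed 2 peaks, the higher one upstream. Within 1 kb of a start in the RefSeq promoter table lay 3820 gained summits (19.7%), 1376 kept siControl summits (9.94%) and 505 lost summits (8.15%). Of these, 59.8% of the gained summits were upstream (58.2% to 61.3%), against 52.2% of kept and 37.8% of lost summits. In bins of 100 bp, the gained summits numbered 486 and 509 in the bins from 500 to 300 bp upstream. They numbered 72 in the 100 bp before the start and 345 from 200 to 300 bp after it. The gap at the start lies where active promoters are usually free of nucleosomes. Over all siME1 AcH2B summits within 1 kb of a start, 45.9% were upstream, and over those of AcH3 in siControl 25.7%.

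**Figure D3:**
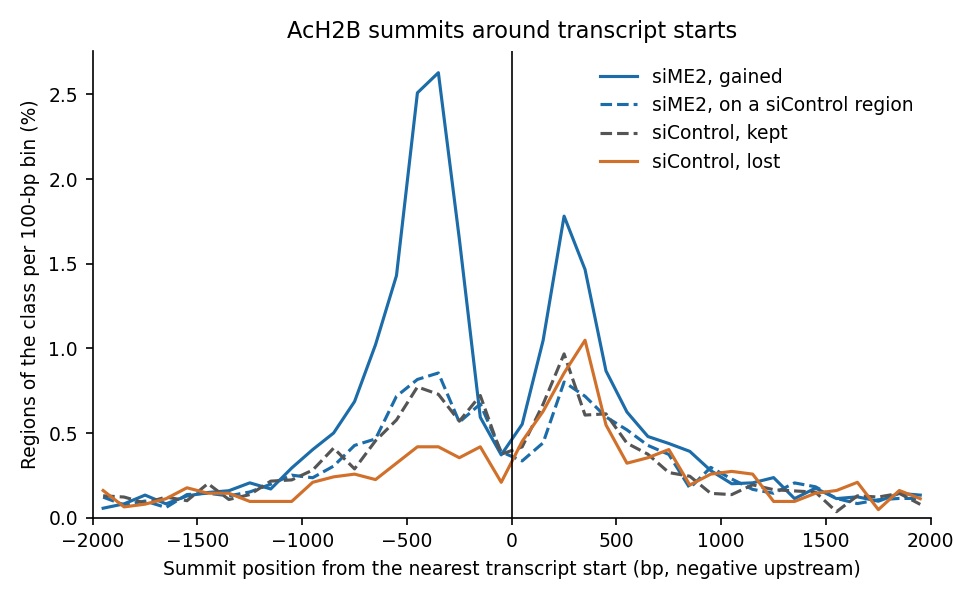
Percent of each class of AcH2B regions whose summit falls in each 100-bp bin (y axis) by distance from the nearest transcript start (x axis, bp, negative upstream). Gained siME2 summits (solid blue) peak 400 to 300 bp upstream at 2.63% and 200 to 300 bp downstream at 1.78%, above the other classes in both places; lost siControl summits (orange) lie mostly downstream.

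Kept regions shared AcH3 more often than the others. An AcH3 siControl region lay under 40.9% of kept, 20.6% of lost and 29.6% of gained regions (28.9% to 30.2% for gained). The AcH3 siME2 list lay under 71.5% of kept, 26.6% of lost and 35.5% of gained regions. That library stands apart: the AcH2B siControl list met it in 57.6% of regions but met AcH3 siControl in only 34.6%. HDAC3 siControl regions, far fewer at 4614, lay under 7.03% of kept, 2.19% of lost and 1.86% of gained regions. Position and AcH3 combined as follows. At gene ends with AcH3 in siControl, 28.3% of siME2 regions met a siControl AcH2B region. Away from gene ends, 65.3% of siME2 regions on AcH3 did. Gene ends were therefore where siME2 regions on AcH3 most often had no siControl counterpart.

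At the level of genes, AcH2B was listed at many more gene ends after ME2 knockdown. Of 21883 protein-coding genes, 2214 had a region within 1 kb of an end in siControl (10.1%) and 5639 in siME2 (25.8%). The mark was gained at 3771 genes (17.2%) and lost at 346 (1.58%), and 1868 of the 2214 genes kept it (84.4%). With only regions of −log10 q of 5 or more, 2136 genes were gained, and with equal numbers of regions in both lists 558 were lost. In siME1 6698 genes were marked. All end regions of 3714 gained genes (98.5%) were gained regions, so few of these calls came from a region that overlapped a siControl region beyond the window. A region that had shifted clear of its siControl place would also count as gained, so shifts cannot be told apart here. Where the promoter table gives the start, 2832 of 3100 gained genes had the siME2 region within 1 kb of it (91.4%). At the 1868 kept genes the median pileup ratio was 1.11 and the median width ratio 1.29. The genes gained had a median siME2 pileup of 15.7 and the lost genes a median siControl pileup of 14.3.

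Nearly all gained genes already carried AcH3. An AcH3 siControl region lay at an end of 3587 of the 3771 gained genes (95.1%). Among genes with AcH3 and without AcH2B in siControl, 3587 of 8282 were gained (43.3%, 42.2% to 44.4%), against 184 of 11387 genes with neither (1.62%). The share gained went from 26.6% in the fifth of those 8282 genes with the lowest AcH3 fold enrichment to 54.7% in the fifth with the highest. The AcH3 siME2 list lacked an end region at 1565 of the 3587 gained genes (43.6%), at 169 of 1737 kept genes (9.73%) and at 5305 of all 10292 genes with AcH3 in siControl (51.5%). Those 1565 gained genes thus had AcH3 listed at an end only in siControl and AcH2B only in siME2. Gained genes nevertheless lacked AcH3 in siME2 less often than all genes with AcH3 in siControl. Of 4695 such genes unmarked by AcH2B in both libraries, 3478 lacked it.

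The strongest gained genes, ranked by siME2 pileup with no siControl region within 5 kb and without regions whose local background was over 3 times the library median, came from several chromosomes but mostly from chromosome 8. Prmt9 had a siME2 pileup of 44.4 (chr8:77548454-77549447). A region shared by the starts of Enkd1 and 4933405L10Rik reached 40.9 (chr8:105708234-105709222). H4c3, a gene for histone H4, and Nfatc3, a calcium-responsive transcription factor, both reached 40.1. Gins3, part of the replicative helicase, had 38.3, and Brf2, a factor of RNA polymerase III, had 35.7. Troap on chromosome 15 had 37.5. All of these genes had an AcH3 region at a gene end in siControl, with folds over background between 5.07 at H4c3 and 14.6 at Troap. The gained AcH2B regions at Enkd1, 4933405L10Rik and Gins3 did not themselves overlap AcH3 in siControl. In siME1 their AcH2B pileups were lower, from 16.4 at H4c3 to 25.6 at Troap. These genes were picked for a high siME2 pileup, which by itself favours lower values in another library. Of the 10 genes ranked, 6 lie on chromosome 8. There the median local background of regions was 4.0 in siControl and 3.83 in siME2, against 3.00 and 2.92 over all regions, and its part in the ranking was not tested. The share of genes gained was 26.1% on chromosome 8 and 8.49% on X, where that background was 2.19 and 2.07.

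The first lost gene by the same rule was Lrp6, a co-receptor of Wnt signalling. Its siControl region (chr6:134566248-134567379) had a pileup of 59.1 and a fold over background of 17.1, and no siME2 region lay within 5 kb of that gene end. The siME1 list gave 63.9 there. A region between the starts of Rxrb, a retinoid X receptor, and Slc39a7, a zinc transporter, had 26.0 in siControl and 25.6 in siME1. The region shared by Git2 and Ankrd13a also had 26.0. Cby1, which encodes an inhibitor of beta-catenin, had 22.4 in siControl and 21.9 in siME1. At these genes the lost regions were thus listed in siME1 at close to their siControl pileup. Ifit1, an interferon-induced gene, had 24.2 in siControl with a fold of only 3.598.

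Among 1188 genes with paired regions at the same end, Sec62, part of the protein translocation machinery, had the highest ratio. Its pileup was 10.8 in siControl and 31.4 in siME2, a ratio of 2.92. Lamp1, a lysosomal membrane protein, had 18.8 and 45.3, a ratio of 2.41. Gabpb2, which encodes a partner of an ETS factor, had 12.5 and 27.9 in a region also within 1 kb of Mllt11. Cdipt, a phosphatidylinositol synthase, had the lowest ratio at 0.43, from 30.5 to 13.1. At Nfe2l2, which encodes the oxidative stress factor NRF2, the paired region had 26.9 in siControl and 12.2 in siME2, and a second siME2 region reached 13.9. Col6a2, a collagen VI chain, had 36.7 and 20.04 and narrowed from 2011 to 1083 bp in the pair.

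**Figure D4:**
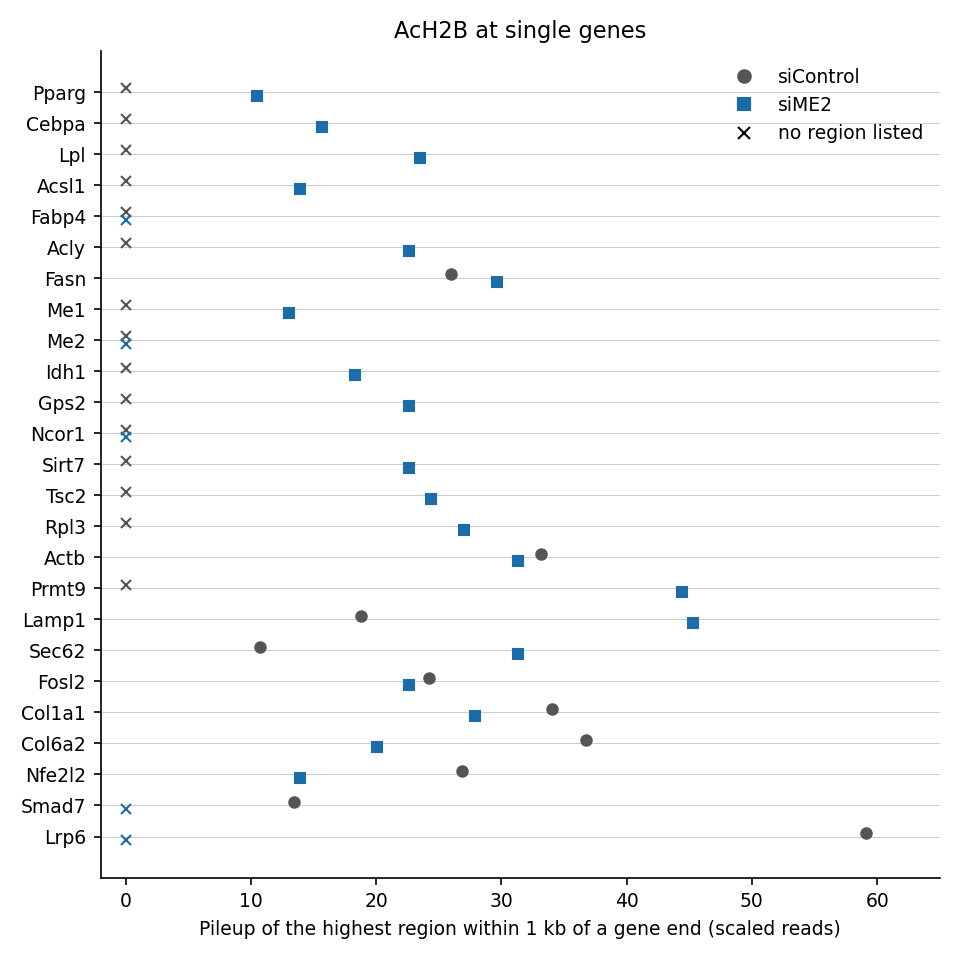
Pileup of the highest AcH2B region within 1 kb of a gene end (x axis, scaled reads) for single genes (y axis) in siControl (grey circles) and siME2 (blue squares); crosses at 0 mark no listed region. From Pparg to Prmt9 most genes have only a siME2 value, such as 10.5 at Pparg and 44.4 at Prmt9, while Smad7 and Lrp6 have only a siControl value.

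Genes of the fat cell were marked by AcH2B less often than genes of fibroblasts. Of 33 adipocyte genes, 4 had an end region in siControl (12.1%) and 11 in siME2 (33.3%), close to the 10.1% and 25.8% of all genes. Of 24 preadipocyte and fibroblast genes, 16 and 19 did. Of the adipocyte markers, Adipoq, Plin1 and Fabp4 had no AcH2B end region in either list, while Pparg, Cebpa and Lpl were gained. Cfd, Cd36, Lep and Retn had no end region in either list, while Gpd1 and Plin4 had one in both. No hepatocyte or endothelial gene had one, of 20 and 15 genes. Of 20 leukocyte genes Cd68 was marked, in siME2, by a gene end, and its annotated start was unmarked in both lists. Of 20 neuronal genes Dlg4 was marked, in siME2, by a gene end, and its start was marked in both lists.

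The 7 adipocyte genes gained (21.2%, beside 17.2% of all genes) were Pparg, Cebpa, Acsl1, Lpl, Nr1h3, Gpihbp1 and Ebf1. Pparg encodes the master regulator of fat cell formation and had 10.5 in siME2 and 22.8 in siME1. Cebpa, its partner factor, had 15.7, and Lpl, lipoprotein lipase, had 23.5. The region at Ebf1 was at a gene end, while its annotated start was marked in both lists. The region at Nr1h3 was also at a gene end, with its annotated start unmarked in both lists. The 4 kept genes were all higher in siME2: Gpd1 had 32.3 and 36.6, Plin4 16.1 and 17.4, Rxra 14.3 and 20.9, and Cebpb 22.4 and 32.2. Their median ratio was 1.29, beside 1.11 over all kept genes.

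Genes that make fat and NADPH were marked in siControl about as seldom as all genes (10.1%) or somewhat more often, and in siME2 more often than all genes (25.8%). The list for fatty acid and triglyceride synthesis has 20 genes, of which 4 carried AcH2B in siControl (20%) and 11 in siME2 (55%), with 8 gained and 1 lost. Acly had a siME2 pileup of 22.7, and Slc25a1, the mitochondrial citrate carrier, had 21.8. Scd1, the stearoyl-CoA desaturase, had 16.6 and Me1 had 13.1. Fasn, fatty acid synthase, was kept with 26.0 in siControl and 29.6 in siME2. Elovl6, a fatty acid elongase with 12.5 in siControl, was the one lost. Of 22 NADPH-producing enzyme genes, 2 were marked in siControl (9.09%) and 10 in siME2 (45.5%). The 8 gained included Mthfd1 at 22.7, Idh1 at 18.3, Pgls at 16.6 and G6pdx, the first enzyme of the pentose phosphate pathway, at 10.5. None of the 22 was lost. Of the genes with AcH3 and no AcH2B in siControl, 8 of 11 in the first list and 8 of 17 in the second were gained, beside 43.3% over all genes.

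Cholesterol synthesis and redox genes included gained and lost members, with shares gained near the 17.2% of all genes. Of all genes 1.58% were lost, and of all genes marked in siControl 15.6%. Of 20 cholesterol synthesis and SREBP2 target genes, 4 were gained (20%) and 2 of the 4 marked in siControl were lost. Hmgcs1 at 20.04, Mvd at 18.3, Sqle at 16.6 and Fdps at 12.2 were gained, while Insig1, which restrains the pathway and had 13.4 in siControl, was among those lost. Of 20 NRF2 and redox genes, 3 were gained (15%) and 1 of the 7 marked in siControl was lost. Nqo1 at 21.8, Txn1 at 13.1 and Gclm at 12.2 were gained and Keap1, the repressor of NRF2, with 11.7 in siControl, was lost. Hmox1, heme oxygenase, was kept with 17.9 and 30.5, and Gpx1, a glutathione peroxidase, with 11.7 and 23.5. Of 22 mitochondrial oxidation genes, 5 were gained (22.7%), among them Cs, citrate synthase, at 17.4, and none was lost. Of members with AcH3 and no AcH2B in siControl, 30.8% of cholesterol, 30% of redox and 29.4% of mitochondrial genes were gained, below the 43.3% of all such genes.

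Among genes of enzymes that write and erase acetylation some were gained and none was lost, at shares given here beside the 17.2% gained and 1.58% lost of all genes. Of 10 genes listed for HDAC3 and the NCoR complex, 5 were marked in siControl and 7 in siME2. The list includes Cops2, Rcor1, Nr1d1 and Nr1d2, which do not encode subunits of that complex. Gps2 and Cops2 were gained (20%), both at 22.7. Tbl1xr1, which like Gps2 encodes a subunit, was kept with 30.5 in siControl and 13.1 in siME2, a ratio of 0.43. Hdac3 itself and Ncor1 had no AcH2B region at a gene end in either list. Of 16 histone acetyltransferase genes, 5 were gained (31.3%), including Kat8 at 20.04 and Kat7 at 18.3. Kat5 counts among them by its gene end, but its start was marked in both lists. Ep300, which encodes p300, was kept with 19.7 and 18.3. Of 17 other deacetylase and sirtuin genes, 5 were gained (29.4%), including Sirt7 at 22.7 and Hdac10 at 21.8. Sirt6 was kept with 13.4 and 27.0. Of members with AcH3 and no AcH2B in siControl, 2 of 4, 5 of 12 and 5 of 9 were gained in these lists, beside 43.3% of all such genes.

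The lists with the largest shares gained were ribosomal protein genes, insulin and mTOR signalling genes and constitutively used genes, at 58.6%, 50% and 44%, beside 17.2% of all genes. Of 29 cytosolic ribosomal protein genes, 4 were marked in siControl and 20 in siME2, with 17 gained and 1 lost. Rpl3 had 27.0 in siME2, Rpl37 20.9 and Rpl10a 20.04, and the lowest gained member, Rpl18, had 10.5. Of 26 insulin and mTOR signalling genes, 4 were marked in siControl and 17 in siME2. The 13 gained included Tsc2 at 24.4 and Tsc1 at 20.04, which restrain mTOR, Rheb at 16.6, which activates it, Insr, the insulin receptor, at 18.3, and Mtor itself at 15.7. The Mtor region lay at a gene end, and its annotated start was unmarked in both lists. Of the 23 members of this list with an annotated start, 9 were gained at the start. Of 25 constitutively used genes, 6 were marked in siControl and 17 in siME2, with Hnrnpa1 at 21.8 and Eef1a1 at 20.04 among the 11 gained. Of members with AcH3 and no AcH2B in siControl, 17 of 25 ribosomal protein genes, 13 of 21 insulin and mTOR genes and 11 of 18 constitutively used genes were gained, beside 43.3% of all such genes.

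Matrix, cytoskeleton and immediate early genes were marked about as often in both lists, while single genes differed in level either way. Of all genes, 10.1% were marked in siControl and 25.8% in siME2, and 17.2% were gained and 1.58% lost. Of 24 collagen and matrix genes, 19 were marked in siControl and 20 in siME2. Over the 17 kept the median pileup ratio was 0.91, beside 1.11 over all kept genes. Col1a1 had 34.0 in siControl and 27.9 in siME2, Col1a2 27.8 and 24.4, and Timp3, an inhibitor of matrix proteases, 26.0 and 13.1. Of the 17, 6 were higher in siME2, among them Mmp14, a membrane-bound matrix protease, with 18.8 and 27.9, and Col6a1, a collagen VI chain, with 21.5 and 29.6. Of 24 actin cytoskeleton and SRF target genes, 13 and 12 were marked, 11 were unmarked in both lists, none was gained and Pdlim7 was lost. Their 12 kept genes had a median ratio of 0.96, with Acta2, smooth muscle actin, at 25.1 and 15.7 and Actb at 33.1 and 31.4. Of 24 AP-1, immediate early and stress genes, 13 were marked in each list and 10 in neither, with a median ratio of 0.95 over the 12 kept. Fosl2 had 24.2 and 22.7 and Junb 36.7 and 39.2. Of members with AcH3 and no AcH2B in siControl, 3 of 4 matrix, 0 of 6 actin and 1 of 10 AP-1 list genes were gained. Over all such genes the share was 43.3%.

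Of 22 TGF-beta and SMAD genes, 13 were marked in siControl and 10 in siME2, beside 10.1% and 25.8% of all genes. The 4 lost of the 13 were the highest count of any list. By share, more of the cholesterol synthesis and SREBP2 target genes marked in siControl were lost, 2 of 4. Over all genes 346 of 2214 marked in siControl were lost (15.6%). Bmp4 (18.8 in siControl), Skil (15.2), Smad7 (13.4) and Tgfbr1 (11.7) were lost, which encode a ligand, 2 feedback regulators and a receptor. The region lost at Bmp4 lay at a gene end, and its annotated start was unmarked in both lists. Ltbp2 was gained by its gene end at 15.7, with its start marked in both lists. Kept members went both ways: Smad3 had 17.9 and 27.0, and Id3, a target of the pathway, 25.1 and 16.6. The 4 lost genes had siControl pileups between 11.7 and 18.8 and were all marked in siME1.

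**Figure D5:**
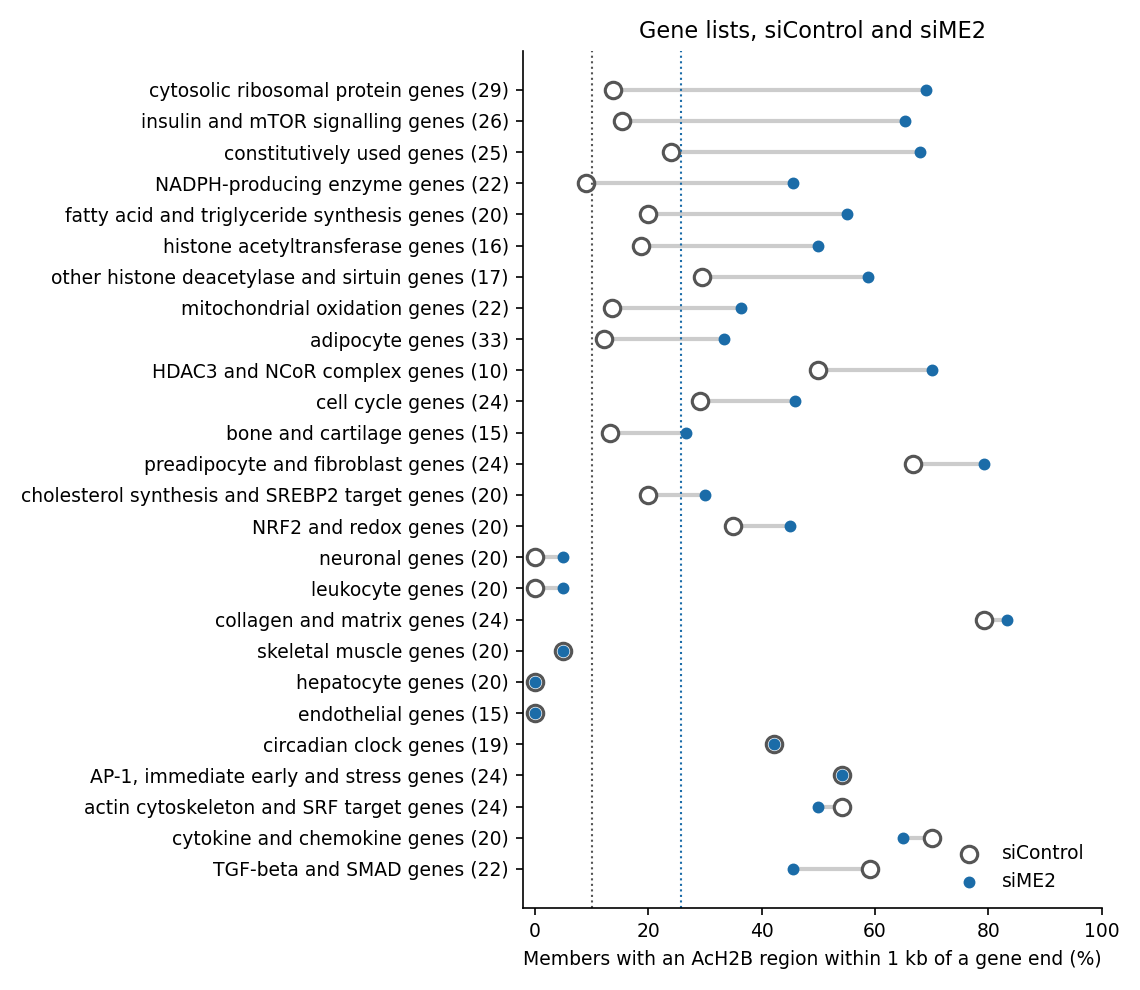
Percent of each gene list's members with an AcH2B region within 1 kb of a gene end (x axis) in siControl (open grey circles) and siME2 (blue points), with list sizes in brackets; dotted lines mark all protein-coding genes, at 10.1% and 25.8%. Ribosomal protein, insulin and mTOR and constitutively used genes have the longest bars to the right, and TGF-beta and SMAD genes a bar to the left.

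Gained promoters differed from kept ones in sequence content more than in CpG number. In the 300-base RefSeq windows, taking the most upstream start of each of 17491 genes, the median number of CpG dinucleotides was 21 for both gained and kept starts, 25 for lost starts and 8 for unmarked ones. The ETS motif printed for Tsc2 occurred in 13.8% of 3026 gained windows (12.7% to 15.1%), 6.36% of 1336 kept windows (5.17% to 7.80%) and 5.28% of all windows. Among windows near AcH3 in siControl it occurred in 14.1% of gained and 8.14% of unmarked windows. The NRF1 half-site occurred in 18.04% of gained, 10.8% of kept and 10.1% of all windows, and in 16.5% of unmarked windows near AcH3. The AP-1 motif occurred in 7.19% of kept, 4.16% of gained and 7.03% of all windows. The GC box occurred in 63.9% of gained, 65.3% of kept and 76.3% of 236 lost windows, beside 46.3% of all. Among windows near AcH3 in siControl, the GC box occurred in 64.5% of gained and 73.3% of unmarked windows. There the AP-1 motif occurred in 3.83% of gained and 3.46% of unmarked windows. These shares describe letters in the windows and say nothing of the factors.

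Far from genes, the highest gained and lost regions had similar pileups. Over 50 kb from any gene end lay 29.2% of gained, 31.5% of kept and 34.3% of lost summits. The highest gained one, between genes with Cdh5 the nearest, had a pileup of 34.8 (chr8:103493727-103495275). An intronic region of Zbtb20, a transcriptional repressor, reached 29.6 (chr16:43220790-43221520). The highest lost one lay inside Zfhx3, with a siControl pileup of 34.0 (chr8:108703768-108705162), and another lay inside Dchs2 with 28.7. Both the Zfhx3 region and the lost region inside Psd3, at 29.6, overlapped AcH3 in siControl, while none of the 5 highest gained distal regions did. The rest of the 5 highest lost distal regions, inside Dchs2 and nearest to Gm51425 and Adamts5, did not overlap it either. Over regions at all distances the order was the other way, with AcH3 siControl under 20.6% of lost and 29.6% of gained regions.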

How the data were processed

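ChIP-seq of AcH2B, AcH3 and HDAC3 was done on 3T3-L1 cells, 1 library for each antibody and siRNA. The submitters' processing notes name BWA, SAMtools, MACS2, bedtools and deepTools, with no version or setting. Columns of the deposited lists have no header and were identified by their ranges. Pileup in the deposited lists is a coverage signal at each summit, scaled by the authors: 1 read counted 0.896 in siControl and 0.871 in siME2. The deposited significance is a −log10 p-value and a −log10 q-value, and the deposited fold is a ratio, from which local background was taken as (pileup + 1) / fold − 1. The lowest −log10 q was 1.31 in siControl and 1.30 in siME2, and the lowest −log10 p 3.498 and 3.293. Library depth was not given here.

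Those notes give mm8 as genome build, but the lists hold scaffolds of GRCm38. On GRCm38.p6 15.9% of siME2 summits lay within 1 kb of a transcript start, against 2.20% after a 50 kb shift. Coordinates were read as GRCm38, counted from 1. Regions were unique chromosome, start and end, each with the highest pileup of its summits and the fold and q of the summit with the highest −log10 p. They were shared on 1 bp of overlap. Gene ends were the boundaries of 21883 RefSeq protein-coding genes, without strand. Starts came from the RefSeq promoter table, which covers 17491 of them.

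The members, the 26 gene lists (542 symbols, all matched) and the rule for naming genes were chosen with earlier results of these data known. Genes were named as the 10 highest gained and 10 highest lost by pileup with no region of the other list within 5 kb, and the 10 highest and 10 lowest pileup ratios. The 5 widest siME2 regions, the 5 largest width gains, the 5 highest gained and lost regions over 50 kb from genes, and list members completed the rule, and some genes it selects are not reported here. Regions with local background over 3 times the library median were left out of naming. Overlap code was tested on simulated regions. Python 3.11.15, pandas 2.3.3 and SciPy 1.17.1 were used, with no test across libraries.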

Additional observations from a re-analysis of the deposited data

How the results depend on the processing

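The 9 counts, shares and ratios were recomputed under 15 alternatives, 66 values in all; 36 stayed within counting error (or within 1.5 times, for gene counts) and 30 moved. The 18 values with one −log10 p limit of 3.498, or without chromosomes 8, 15 and 19, came from alternatives chosen after seeing the data. With 50% reciprocal overlap, 33.5% of siControl regions were kept, 66.5% lost, and 79.3% of siME2 regions gained; with a gap of 500 bp allowed, 80.0%, 19.95% and 49.9%. The majority of siControl regions thus went from kept to lost under the first, and that of siME2 regions from gained to shared under the second. With a −log10 q of 5 or more, 64.9% were kept and 35.1% lost, the width ratio was 1.20, the pileup ratio 1.05, and 2136 genes were gained. The share of gained regions on AcH3 was then 40.4% and that within 1 kb of a gene end 26.2%. With equal numbers of regions, 56.7% were kept, 43.3% lost and 49.6% gained, again just under the majority; the width ratio was 1.23, the pileup ratio 1.09, 558 genes were lost, and the AcH3 and gene-end shares were 35.4% and 27.3%. Merging neighbours gave 60.4% gained, and leaving out chromosomes 8, 15 and 19 gave 60.5% gained and 28.9% on AcH3. Summed widths gave a width ratio of 1.45. Folds gave a pileup ratio of 1.06 and pileup over background 1.10. Windows of 2 kb and 500 bp gave 27.6% and 14.95% at gene ends, and summits inside AcH3 24.7%. Genes gained outnumbered genes lost under all 8 alternatives that recomputed both. No paired analysis was possible because each group has 1 library. The cause of these shifts was not tested. Absence from a list means only that no region passed the authors' limit there, and with 1 library a side no library could be left out.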

Other observations

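Values for cytokine, cell cycle and clock genes follow, beside 10.1% of all genes marked in siControl and 25.8% in siME2. Of all genes, 17.2% were gained and 1.58% lost. Of 20 cytokine and chemokine genes, 14 were marked by AcH2B in siControl and 13 in siME2, and the 12 kept had a median pileup ratio of 1.19, with 9 higher in siME2. Ccl9, a chemokine, had 17.9 in siControl and 31.4 in siME2, Ptgs2, the inducible cyclooxygenase, had 16.1 and 24.4, and Cxcl1 had 20.6 and 13.1. Of 24 cell cycle genes, 7 were marked in siControl and 11 in siME2, with 4 gained (16.7%, beside 17.2% of all genes) and none lost. Among those gained were Cdk2 at 26.1 and Pcna, the replication clamp, at 19.2. Of the 7 kept, 5 were higher in siME2, such as E2f1, a transcription factor of the S phase, with 13.4 and 20.04, while Ccnd1, which encodes cyclin D1, had 17.0 and 10.5. Of 19 clock genes, Dbp was gained at 18.3 and Per3, with 11.7 in siControl, was lost. Nr1d1, which encodes the nuclear receptor REV-ERB alpha, had 31.4 and 34.0.

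Of 15 bone and cartilage genes, 2 were marked in siControl (13.3%) and 4 in siME2 (26.7%), near the 10.1% and 25.8% of all genes. Comp was kept with 38.5 and 40.9 and Sox9 with 18.8 and 16.6, and Phex was gained at 12.2. The Phex region lay at a gene end, and its annotated start was unmarked in both lists. Runx2, the transcription factor of osteoblasts, was gained at 27.0, with no AcH2B region in siME1 and no AcH3 region in either list used. Of 20 skeletal muscle genes, Tnni2 was marked in both lists, at 18.8 and 26.1.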
